A study of Mus musculus with 4 samples.

Results

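The 7 genes described here were grouped as surface barrier genes of stratified epithelia: the protease inhibitors Stfa1, Stfa3 and Serpinb3a, the envelope and surface proteins Sprr1a, Cnfn and Sbsn, and the secreted growth factor carrier Fgfbp1. The name holds less well for the stefins Stfa1 and Stfa3, whose UMIs lay mostly in neutrophil-like and other immune cells in each library. They are 7 of the 32285 genes in the count matrices and were chosen on measured values, either as genes with high levels in E15.5 epithelium and lower levels at P1 or as leading genes of suprabasal epithelial cells. Their stage difference over the whole epithelium and their level in suprabasal cells therefore describe how they were chosen and carry no test. The stage difference within suprabasal cells draws on many of the same UMIs and carries no test either. Single-cell RNA sequencing (3' counting on droplets, with a unique molecular identifier, UMI, for each captured transcript) was made of molar tooth organs of wild-type mice (genotype label WTB6, C57BL/6J) at the embryonic stage E15.5 (labelled E15) and postnatal day 1 (P1, with pups described as P0/P1). There were 4 libraries, 1 for each jaw at each stage: E15.5 maxillary, E15.5 mandibular, P1 maxillary and P1 mandibular, given in this order below. Each library was made from 6 pooled tooth organs and no label ties cells to an animal. Each library thus counts as 1 sample without a replicate. Stage and jaw are crossed over the 4 libraries. A stage difference within a jaw, or a jaw difference within a stage, cannot be told apart from a difference between libraries. Values are therefore given with exact Poisson or binomial 95% intervals that cover counting error only, with no p-value, and the UMIs of 1 cell are not independent.

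The libraries held 10885, 7947, 18707 and 19401 barcodes and 109723360, 86659227, 128812956 and 139873101 UMIs, with a median of 9106, 10048, 3492 and 4090 UMIs per barcode. The P1 libraries shared 7131 barcodes, 38.1% of the maxillary and 36.8% of the mandibular barcodes, against 28 to 70 shared barcodes for each other pair of libraries. A shared barcode held more UMIs in the maxillary than in the mandibular library by a log2 ratio with a median of 2.07 (5th to 95th percentile 2.003 to 2.185). Shared barcodes were dropped from the P1 mandibular library, and results for P1 maxillary are also given without them. After a minimum of 1000 UMIs and removal of high-mitochondrial barcodes and doublets, 8395, 6059, 13760 and 8161 cells remained.

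Epithelium-like cells, named from markers such as Epcam, Cdh1 and Krt14, numbered 696, 104, 2114 and 1194. Among them, 101, 31, 97 and 89 cells were suprabasal-like by keratins of the upper layers (Krt1, Krt4, Krt10, Krt13, Krt16 and others). The 7 genes and their related gene lists were left out of the clustering. The suprabasal marker list of 9 genes summed to 21103, 12291, 25154 and 16495 counts per 1000000 UMIs (CPM) in the suprabasal-like cells. It summed to 486, 98.5, 115 and 42.0 CPM in the other epithelium. Krt13 carries most of the sums of the suprabasal-like cells, while Krt10 was the most abundant in the other epithelium of both mandibular libraries. Not every marker set the classes apart: Krt10 was at 146, 102, 454 and 26.7 CPM in suprabasal-like cells and at 39.5, 57.3, 31.4 and 28.9 in the other epithelium. In P1 mandibular it was thus no higher in the suprabasal-like cells. Krt76 and Krt78 were at 0 in the E15.5 mandibular suprabasal-like cells, as were Krt76 and Dsc1 in those of P1 mandibular. The basal oral list of 7 genes (Krt5, Krt14, Krt15 and others) summed to 11351, 10542, 9291 and 8507 CPM in the suprabasal-like cells. In the other epithelium it summed to 7584, 2308, 3589 and 4044. Of that list Itga6 and Trp63 were lower in suprabasal-like cells in each library. The periderm list (Krt6a, Krt17, Krt19 and others) summed to 10647, 3507, 8072 and 4879 CPM in suprabasal-like cells. Neither periderm nor basal oral cells are thus fully separated from suprabasal cells here.

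In the surface layers of oral epithelium and skin, cells leaving the basal layer build a cornified envelope, a sheet of small proline-rich proteins, cornifelin and other precursors that transglutaminases cross-link beneath the cell membrane. Stefins are intracellular inhibitors of cysteine cathepsins, and clade B serpins such as Serpinb3a inhibit cysteine and serine proteases inside the cell. Fgfbp1 binds fibroblast growth factors held in the matrix and releases them to their receptors. Stefin genes of this cluster are also abundant in mouse neutrophils, so their level is read by cell type below.

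The genes lie on 5 chromosomes of the mm10 build, as annotated in GENCODE. Stfa1 (chr16:36276951-36285373, plus strand) and Stfa3 (chr16:36450537-36455392, minus strand) belong to the stefin cluster of chromosome 16. Cnfn (chr7:25367620-25369724, minus strand) and Sbsn (chr7:30751471-30756134, plus strand) are on chromosome 7. Sprr1a lies in the epidermal differentiation complex at chr3:92483952-92485895, Fgfbp1 at chr5:43978858-43981779 and Serpinb3a at chr1:107045587-107052303, each on the minus strand. Of 24 windows of 90 bases at the 3' ends of Stfa1 transcripts, 2 also occurred in BC100530, and of 54 such windows for Sbsn, 19 also occurred in Tmem147os, so reads of these genes could be shared with those neighbours. No such window of the other 5 genes occurred in another gene.

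The 250 bases before the start of 5 of the genes are shown here because Stfa1 and Stfa3, and Cnfn and Serpinb3a, had the closest profiles over cell classes, and because Sprr1a held repeated AP-1 letters. The sequences are from RefSeq on GRCm38.p6, whose starts differ from the outermost GENCODE starts for Stfa1, Sprr1a and Fgfbp1, written 5' to 3' along the strand of the gene, and capitals mark a match to AP-1 (TGANTCA), GRHL (AACNGGTT), TFAP2 (GCCNNNGGC), C/EBP (TTGCNNAA) or TATA box (TATAAA) letters on either strand.
Stfa1, chr16:36276898-36277147, plus strand: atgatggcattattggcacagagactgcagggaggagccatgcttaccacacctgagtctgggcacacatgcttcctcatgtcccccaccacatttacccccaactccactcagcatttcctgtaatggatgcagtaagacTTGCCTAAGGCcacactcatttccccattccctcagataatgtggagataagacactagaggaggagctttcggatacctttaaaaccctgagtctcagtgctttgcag
Stfa3, chr16:36455393-36455642, minus strand: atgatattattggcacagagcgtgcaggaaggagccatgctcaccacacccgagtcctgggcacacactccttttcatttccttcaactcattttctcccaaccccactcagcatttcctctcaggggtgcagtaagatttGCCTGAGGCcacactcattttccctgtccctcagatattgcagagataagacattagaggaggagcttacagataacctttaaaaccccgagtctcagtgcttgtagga
Cnfn, chr7:25369725-25369974, minus strand: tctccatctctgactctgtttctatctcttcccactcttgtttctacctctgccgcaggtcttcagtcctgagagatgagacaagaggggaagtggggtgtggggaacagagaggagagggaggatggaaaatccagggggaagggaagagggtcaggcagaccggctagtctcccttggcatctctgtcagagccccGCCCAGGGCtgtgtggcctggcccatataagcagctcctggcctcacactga
Serpinb3a, chr1:107052304-107052553, minus strand: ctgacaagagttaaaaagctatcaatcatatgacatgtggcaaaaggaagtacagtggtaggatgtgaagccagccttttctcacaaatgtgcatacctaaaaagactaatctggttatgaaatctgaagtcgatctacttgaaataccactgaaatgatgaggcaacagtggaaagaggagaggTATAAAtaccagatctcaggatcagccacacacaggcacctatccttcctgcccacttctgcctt
Sprr1a, chr3:92485882-92486131, minus strand: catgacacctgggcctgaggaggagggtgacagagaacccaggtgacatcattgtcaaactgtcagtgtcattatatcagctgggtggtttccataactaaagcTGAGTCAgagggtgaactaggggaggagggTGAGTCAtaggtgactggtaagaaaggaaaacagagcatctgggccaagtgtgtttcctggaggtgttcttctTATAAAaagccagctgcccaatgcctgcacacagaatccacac
All 7 genes were matched to a promoter window of 300 bases, 250 before and 50 after the start. AP-1 letters were found in Sprr1a (146 and 116 bases before the start), Sbsn (119 and 6 bases before it) and Stfa3 (29 bases after it), against 7.81% of 32851 windows of all genes. The TFAP2 letters occurred in Stfa1, Stfa3 and Cnfn, against 16.6% of all windows. In Stfa1 they overlapped the C/EBP letters, which also occurred in Sbsn, against 10.8% of all windows. A TATAAA was found in Sprr1a (43 bases before the start), Serpinb3a (65 bases before it) and Fgfbp1 (3 bases after it), against 13.6%. No GRHL letters were found in the 7 windows, against 2.09%. The upstream windows of Stfa1 and Stfa3 were identical in 213 of 255 aligned columns (83.5%), and the TFAP2 letters lay 107 and 109 bases before the start. These matches are letters in a window and say nothing of binding.

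Over the whole epithelium each gene had a higher CPM at E15.5 than at P1 in both jaws, a contrast that entered the choice of some of the genes. Among the envelope and surface genes, Sprr1a, a small proline-rich envelope precursor, was at 53.7, 85.3, 11.4 and 9.62 CPM (E15.5 maxillary, E15.5 mandibular, P1 maxillary, P1 mandibular). Cnfn, which encodes the envelope protein cornifelin, was at 47.3, 43.7, 9.62 and 4.16. Sbsn, which encodes the secreted protein suprabasin, was at 158, 226, 39.7 and 30.4. Both E15.5 libraries were above both P1 libraries for these 3 genes.

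Serpinb3a was at 46.7, 20.2, 15.49 and 4.16 CPM of the epithelium, the narrowest gap between an E15.5 and a P1 library of the 7 genes. Stfa3 was at 59.9, 262, 2.30 and 2.96, and Stfa1 at 17.8, 124, 3.52 and 10.9. The E15.5 mandibular level was the highest of the 4 for both stefins, but 1 cell held 89.98% of the Stfa3 and 84.4% of the Stfa1 UMIs of that epithelium. Without the highest cell of each library Stfa3 was at 47.9, 27.7, 1.96 and 2.13, highest in E15.5 maxillary, and Stfa1 at 14.2, 20.5, 2.59 and 6.72. Fgfbp1 was at 164, 127, 17.9 and 8.47, with the maxillary library the higher at each stage.

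In log2 of the P1 over the E15.5 level, the maxillary values ran from -1.59 (95% interval -1.80 to -1.39) for Serpinb3a to -4.71 (-5.16 to -4.28) for Stfa3. The mandibular values ran from -2.28 (-2.81 to -1.74) for Serpinb3a to -6.47 (-6.88 to -6.08) for Stfa3. In the maxillary epithelium 6 of the 7 genes were compared (Stfa1 did not reach 20 CPM in either stage), and 4 of them (Stfa3, Fgfbp1, Sprr1a and Cnfn) were at least 4-fold lower at P1, against 1.29% of 7698 genes. Sbsn, at -1.99, lay just outside the 4-fold bound, and Sprr1a, at -2.24, was the nearest inside it. In the mandibular epithelium all 7 were at least 4-fold lower, against 1.76% of 7661 genes, with Serpinb3a nearest to the bound. Since this contrast entered the choice of genes, the counts are read no further.

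The makeup of the epithelium differed between the libraries. Suprabasal-like cells were 14.5% (95% exact interval 12.0 to 17.4), 29.8% (21.2 to 39.6), 4.59% (3.74 to 5.57) and 7.45% (6.03 to 9.09) of epithelium-like cells, and held 18.5%, 47.1%, 3.30% and 6.23% of the epithelial UMIs. The log2 ratio of this share of UMIs, P1 over E15.5, was -2.49 in the maxilla and -2.92 in the mandible. Dental-like epithelium, by contrast, was 9.91%, 51.0%, 37.7% and 90.2% of the cells. Basal-like epithelium was 52.3% in E15.5 maxillary, 19.2% in E15.5 mandibular and 16.1% in P1 maxillary, with no such class in P1 mandibular. Respiratory and olfactory-like cells were 15.3% in P1 maxillary. The other epithelium thus holds different cell types in each library, and ratios that use it also compare those types. Such shares depend on how much oral epithelium was dissected with each tooth organ, and the dissection cannot be told apart from the stage.

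Within the suprabasal-like cells the ratios differed from gene to gene, and most of them depend on which cells the clustering puts in the class, as given below. Sprr1a was at 279, 179.5, 253 and 144 CPM, with a log2 ratio of P1 over E15.5 of -0.14 (-0.39 to 0.11) in the maxilla and -0.32 (-0.62 to -0.02) in the mandible. Cnfn was at 253, 92.8, 283 and 65.9, with ratios of 0.16 (-0.09 to 0.40) and -0.49 (-0.93 to -0.06). Sbsn was at 759, 463, 839 and 334, with ratios of 0.15 (0.01 to 0.28) and -0.47 (-0.66 to -0.28).

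Serpinb3a was at 251, 42.9, 466 and 65.9 CPM of the suprabasal-like cells, higher at P1 in both jaws (log2 ratio 0.89, 0.69 to 1.09, in the maxilla and 0.62, 0.09 to 1.16, in the mandible). Fgfbp1 was at 469, 269, 178 and 91.8, lower at P1 in both jaws (-1.40, -1.69 to -1.13, and -1.55, -1.88 to -1.23). Stfa3 was at 101, 557, 45.9 and 12.5, also lower at P1 (-1.13, -1.73 to -0.59, and -5.47, -6.32 to -4.74). Stfa1 was at 64.4, 261, 94.7 and 21.7, higher at P1 in the maxilla (0.56, 0.11 to 0.99) and lower in the mandible (-3.59, -4.23 to -3.01).

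These ratios moved with the clustering and the filters. With a Leiden resolution of 0.5 in place of 1, the maxillary ratios were -1.98 for Sprr1a, -1.75 for Cnfn, -1.64 for Sbsn and -0.99 for Serpinb3a, so that all 4 genes were lower at P1. With a resolution of 2 the mandibular ratios were -2.37 for Sbsn and -0.47 (-0.995 to 0.07) for Serpinb3a, and with cells named one by one from their markers that of Sprr1a was -1.998. The maxillary Stfa3 ratio was 0.52 (-0.18 to 1.19) with a minimum of 2000 UMIs per barcode, and the mandibular one was -0.66 (-2.25 to 1.00) with doublets and high-mitochondrial barcodes kept in, where that of Stfa1 was 1.36. Between jaws, the mandibular over maxillary ratio within suprabasal-like cells at E15.5 was -0.63 for Sprr1a and -0.71 for Sbsn, but 1.46 and 1.15 with doublets and high-mitochondrial barcodes kept in. The Fgfbp1 ratio stayed below 0 in both jaws under each of the 14 alternatives, from -2.03 to -0.31 in the maxilla and from -2.39 to -1.39 in the mandible.

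None of the 7 genes was at least 4-fold lower at P1 in the maxillary suprabasal-like cells, where 0.789% of 6588 genes were, and 2 of 7 (Stfa1 and Stfa3) were in the mandibular cells, where 1.62% of 7364 genes were. The mandibular count stayed at 2 with other cell sets but for other genes: with doublets and high-mitochondrial barcodes kept in, with cells named one by one and at a resolution of 2 it was Fgfbp1 and Sbsn, and without the highest cell of each gene it was Stfa3 and Cnfn. The median log2 ratio of the 7 genes was 0.15 in the maxilla and -0.49 in the mandible, beside -0.14 and 0.08 over all genes compared. Over the whole epithelium the medians were -2.27 (6 genes) and -3.39, beside 0.06 and 0.00. The 2 contrasts share UMIs. In E15.5 mandibular, 648 of the 649 epithelial Stfa3 UMIs and 304 of the 307 Stfa1 UMIs were in suprabasal-like cells. The counts and medians within these cells are thus descriptions of genes chosen on nearly the same values.

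In P1 maxillary, 1121 of the 2114 epithelium-like and 36 of the 97 suprabasal-like cells carried a shared barcode. Without them the suprabasal-like levels of Sprr1a, Cnfn, Sbsn, Serpinb3a, Stfa1, Stfa3 and Fgfbp1 were 484, 371, 907, 498, 127, 89.3 and 381 CPM. The log2 ratios to E15.5 maxillary then were 0.80, 0.55, 0.26, 0.99, 0.98, -0.17 and -0.30, so that Sprr1a and Cnfn were higher at P1 with intervals above 0, and the intervals of Stfa3 (-0.93 to 0.50) and Fgfbp1 (-0.64 to 0.03) included 0. Over the whole epithelium without shared barcodes all 7 stayed below 0, from -0.49 for Sprr1a to -3.21 for Stfa3, and 1 gene was at least 4-fold lower.

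Many of these sums came from very few cells. In E15.5 mandibular, 1 suprabasal-like cell with 129379 UMIs held 584 of the 648 Stfa3 UMIs (90.1%) and 259 of the 304 Stfa1 UMIs (85.2%). A second cell, with 94983 UMIs, held 140 of 209 Sprr1a, 70 of 108 Cnfn and 32 of 50 Serpinb3a UMIs. In P1 mandibular, 1 cell with 59203 UMIs held 76 of 79 Cnfn UMIs (96.2%), 93 of 172 Sprr1a UMIs and 48 of 79 Serpinb3a UMIs. The maxillary libraries were less concentrated, the highest cell holding 6.58% to 36.8% of a gene's suprabasal UMIs, apart from 144 of 222 Stfa3 UMIs in 1 cell at E15.5.

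With the highest cell of each gene left out of each group, the mandibular suprabasal-like ratios were -1.38 for Stfa1, -2.61 for Stfa3, 0.10 for Sprr1a, -3.75 (-6.09 to -2.10) for Cnfn and -0.25 for Sbsn. The maxillary Stfa3 ratio was then 0.02 (-0.71 to 0.69) and that of Serpinb3a 0.57 (0.32 to 0.81). Over the mandibular epithelium, 4 of the 7 genes rather than all 7 were at least 4-fold lower at P1, with Stfa1 at -1.61 and Stfa3 at -3.70. The Fgfbp1 ratios moved little, to -1.484 and -1.389 in suprabasal-like cells, this gene being spread over 82, 20, 41 and 33 cells.

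**Figure D1:**
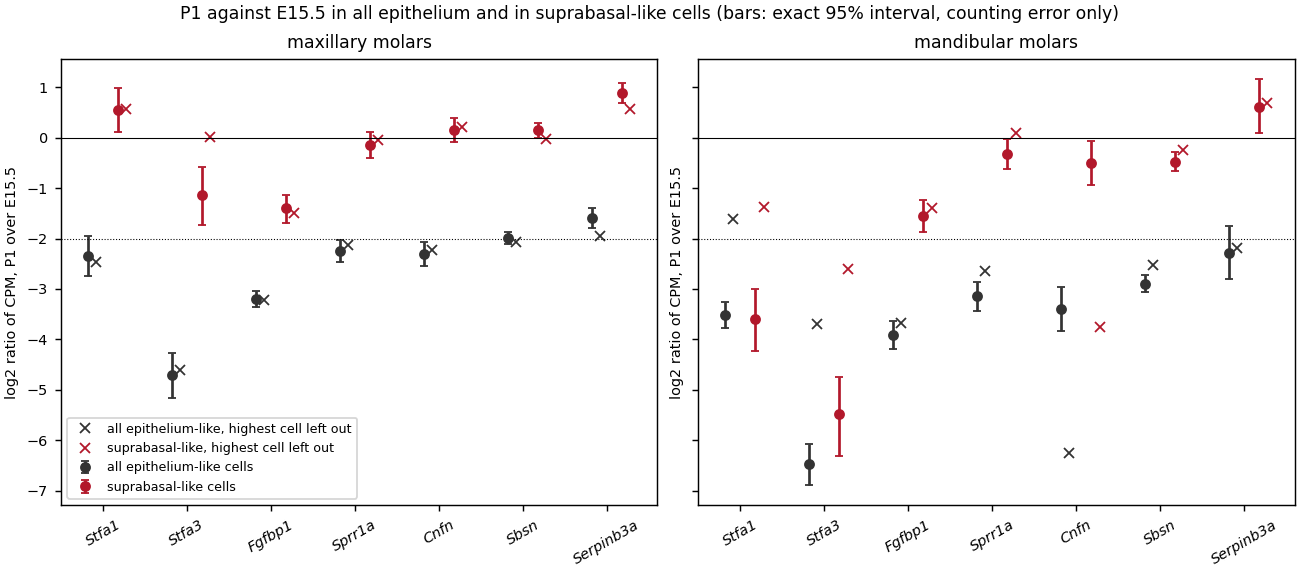
Log2 ratio of the P1 over the E15.5 level (CPM) of each gene in each jaw, over all epithelium-like cells and within suprabasal-like cells, with 95% intervals for counting error (dots and bars) and with the highest cell of the gene left out of each group (crosses). Over the whole epithelium every point is below 0, while within suprabasal-like cells the dots of Sprr1a, Cnfn and Sbsn lie between -0.49 and 0.16 and those of Serpinb3a above 0 in both jaws. At a clustering resolution of 0.5 (not plotted) these 4 maxillary ratios lie between -1.98 and -0.99.

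**Figure D2:**
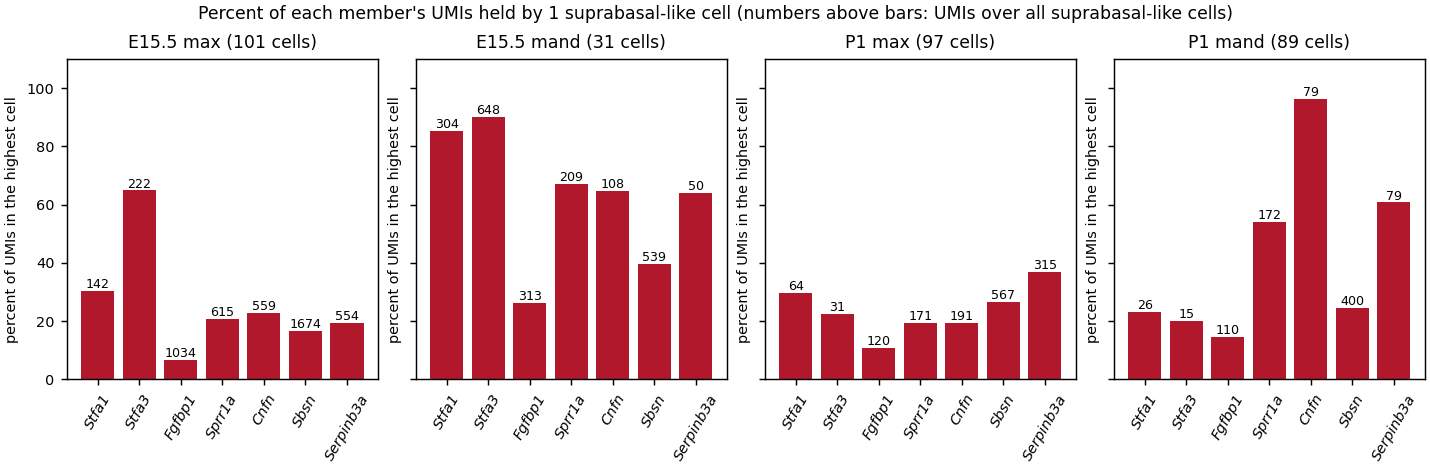
Percent of the UMIs of each gene in suprabasal-like cells that 1 cell held, by library, with the UMIs over all suprabasal-like cells above each bar. The bars of the mandibular libraries reach 90.1% for Stfa3 at E15.5 and 96.2% for Cnfn at P1, while Fgfbp1 stays between 6.58% and 26.2%.

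Next the suprabasal-like cells were set against the other epithelium of the same library, a contrast that also entered the choice of the genes. Cnfn and Serpinb3a were the most restricted. Cnfn was at 0.412, 0, 0.303 and 0.0554 CPM in the other epithelium, the 0 of E15.5 mandibular allowing up to 2.29 at a count of 3. Serpinb3a was at 0.206, 0, 0.101 and 0.0554, and its log2 ratio of suprabasal-like over other epithelium was 10.25 (8.39 to 13.30) in E15.5 maxillary and 12.17 (10.31 to 15.22) in P1 maxillary, each on 2 UMIs in the other epithelium. In E15.5 mandibular, against 3 counts in place of 0, Cnfn was at least 5.34 and Serpinb3a at least 4.23 higher on the log2 scale.

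Sprr1a was at 2.47, 1.53, 3.13 and 0.721 CPM in the other epithelium (log2 ratios 6.82, 6.88, 6.34 and 7.64, the 6.88 on 2 UMIs with an interval of 5.01 to 9.93). Sbsn kept a low level there of 20.8, 15.3, 12.4 and 10.2 (5.19, 4.92, 6.08 and 5.03), close to its mesenchyme-like level of 12.9, 13.8, 12.3 and 10.1. Fgfbp1 was at 94.97, 1.53, 12.5 and 2.94 in the other epithelium, so that its ratio was 2.30 in E15.5 maxillary and 7.46 (5.59 to 10.51, on 2 UMIs) in E15.5 mandibular. Thus Fgfbp1 was not confined to the upper layers in E15.5 maxillary.

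With the main settings the stefins were higher in suprabasal-like cells in each library, by widely different ratios. For Stfa3 in E15.5 maxillary this direction was not stable. Its log2 ratio was -0.99 with a minimum of 2000 UMIs per barcode. Without the highest cell of each class it was at 35.6 CPM in suprabasal-like cells and at 42.0 in the other epithelium. Stfa3 was at 50.6, 0.764, 0.808 and 2.33 CPM in the other epithelium, with log2 ratios of 0.99, 9.51, 5.83 and 2.43, the 9.51 resting on 1 UMI in the other epithelium (95% interval 7.03 to 14.82). Stfa1 was at 7.22, 2.29, 0.404 and 10.2, with ratios of 3.16, 6.83 (5.27 to 9.12, on 3 UMIs), 7.87 and 1.09. The E15.5 mandibular ratios turned with the clustering: with a Leiden resolution of 2 in place of 1 they were -3.27 for Stfa1 and -3.55 for Stfa3. The Stfa1 ratio of P1 over E15.5 in mandibular suprabasal-like cells was then 1.57 in place of -3.59. In P1 mandibular the 10.2 of Stfa1 lay beside 6.57 in mesenchyme-like cells, and 81 of its 184 UMIs in the other epithelium were in 1 cell. At least 4-fold higher in suprabasal-like cells were 6 of 7 genes in E15.5 maxillary (all but Stfa3), 7 of 7 in E15.5 mandibular, 7 of 7 in P1 maxillary and 5 of 6 in P1 mandibular (not Stfa1, while Stfa3 was too low to be compared), against 2.46%, 3.08%, 3.96% and 4.72% of all genes compared.

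**Figure D3:**
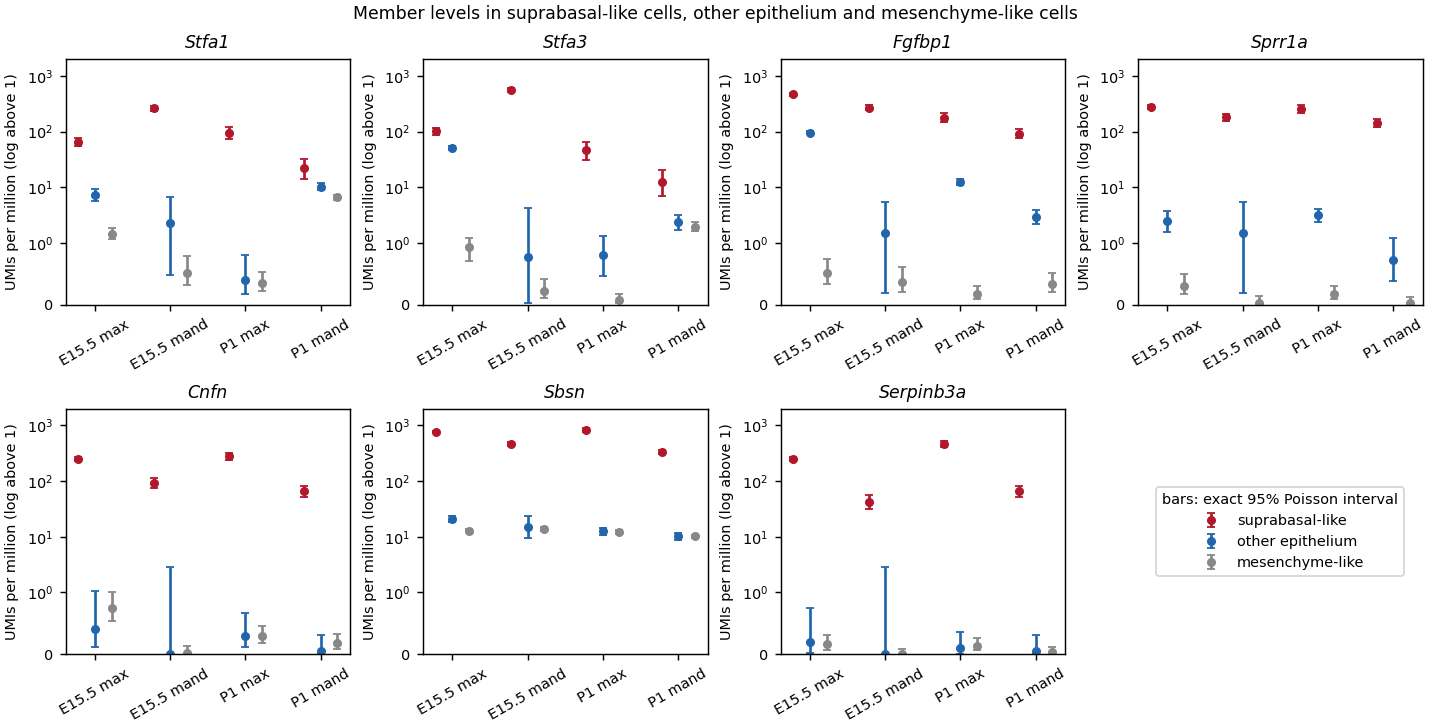
Level of each gene (CPM, log scale above 1) in suprabasal-like epithelium, other epithelium and mesenchyme-like cells of the 4 libraries, with 95% Poisson intervals. Cnfn and Serpinb3a are plotted under 1 in the other epithelium and the mesenchyme-like cells of each library (the 0 in other epithelium of E15.5 mandibular allows up to 2.29), whereas Stfa3 in E15.5 maxillary is at 50.6 and Fgfbp1 at 94.97 in the other epithelium.

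Subclusters of the E15.5 maxillary epithelium, the E15.5 library with more epithelial cells, showed where the genes part. Subcluster 10, of 70 suprabasal-like cells led by Krt6a, Krt4, Cnfn and Krt16, held Sprr1a at 357, Cnfn at 326, Serpinb3a at 316, Sbsn at 953 and Fgfbp1 at 537 CPM, with Stfa3 at 35.0. Subcluster 0, of 31 suprabasal-like cells led by Cyp2t4, Acp5, S100a4 and Mt3 and with Krt10 among its leading genes, held Stfa3 at 330 and Stfa1 at 145, with Sprr1a at 4.08, Serpinb3a at 24.5 and no Cnfn UMI. Of these, 1 cell of 17351 UMIs held 144 of the 162 Stfa3 and 43 of the 71 Stfa1 UMIs, and without it subcluster 0 was at 38.0 for Stfa3, near subcluster 10, and at 59.2 for Stfa1.

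Subcluster 3, of 33 basal-like cells led by Cxcl14, Stfa3, Lhx2 and Krt79, held Stfa3 at 785 (706 to 870) and Stfa1 at 104 CPM, with no UMI of Sprr1a, Cnfn or Serpinb3a. Without its highest cell it was still at 619 for Stfa3 and 78.3 for Stfa1. Fgfbp1 was at 144 to 192 in the basal-like subclusters 3, 4, 6, 7 and 14 but at 48.8 and 9.73 in the basal-like subclusters 11 and 1, at 82.7 in the gland-like subcluster 5 and at 137 in the unnamed subcluster 13. At P1 its level outside suprabasal-like cells was highest in a basal-like maxillary subcluster of 134 cells, at 108. Without subclusters 0 and 3, the maxillary P1 over E15.5 ratio over the epithelium was -2.91 for Stfa3 and -1.27 for Stfa1, and within suprabasal-like cells it was 1.19 for Stfa1, 0.39 (-0.28 to 1.04) for Stfa3, -0.50 for Sprr1a, -0.21 for Cnfn, -0.18 for Sbsn and 0.56 for Serpinb3a. Since genes of these cells were used in clustering, the subcluster values are descriptions.

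**Figure D4:**
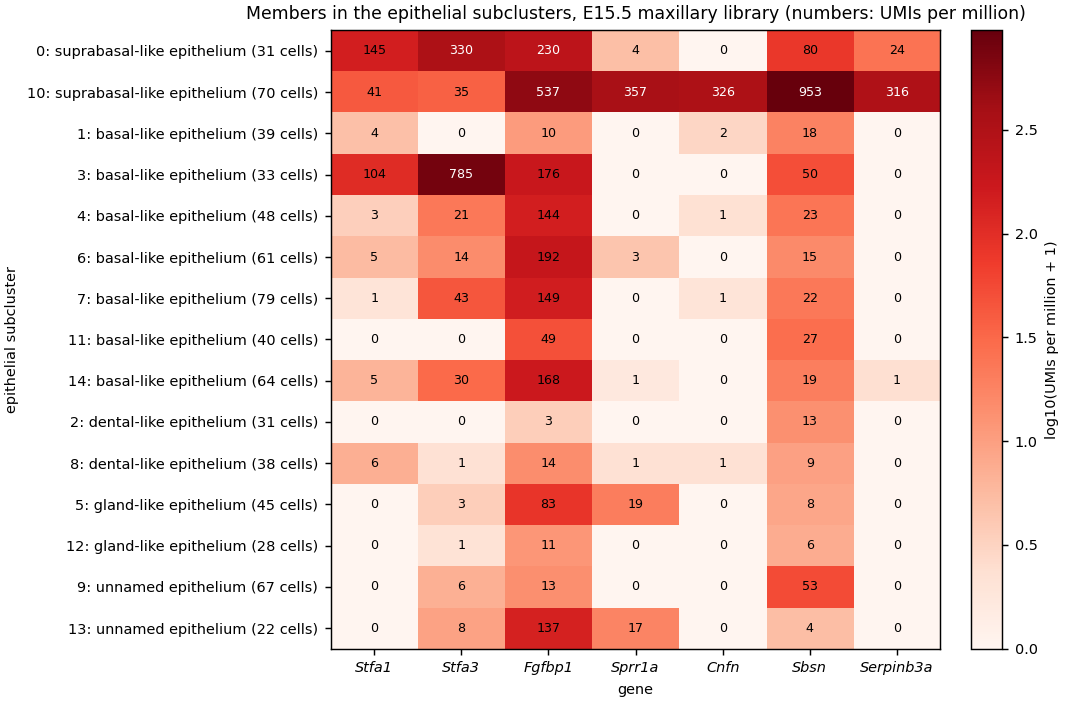
Level of each gene (CPM) in the subclusters of E15.5 maxillary epithelium, each labelled with its class and number of cells. Sprr1a, Cnfn, Sbsn and Serpinb3a peak in subcluster 10. Stfa3 peaks in subcluster 3, its value in subcluster 0 resting on 1 cell (38.0 without it). Fgfbp1 is spread over several subclusters, with basal-like ones from 9.73 to 192.

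The jaws were compared within each stage. Over the E15.5 epithelium, Stfa1 and Stfa3 were higher in the mandible (log2 ratio of mandibular over maxillary 2.80 and 2.13) and Serpinb3a lower (-1.21), so 3 of 7 genes were at least 2-fold apart, against 4.44% of 7339 genes. Without the highest cell of each gene, the Stfa3 ratio turned to -0.79 and that of Stfa1 was 0.53. In E15.5 suprabasal-like cells 4 of 7 genes were at least 2-fold apart, against 13% of 6892 genes, with Cnfn (-1.45) and Serpinb3a (-2.55) lower in the mandible and the stefins (2.02 and 2.47) higher. These directions were not stable apart from that of Serpinb3a. Without the highest cell of each gene the ratio was -0.06 (-0.60 to 0.47) for Stfa1 and 0.80 for Stfa3, with doublets and high-mitochondrial barcodes kept in it was -1.35 for Stfa1, -0.57 for Stfa3 and 0.41 for Cnfn, and at a resolution of 2 it was -2.26, -2.20 and 0.29. The count of 4 genes was 2 with cells named one by one and 7 at a resolution of 0.5.

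At P1 the whole-epithelium levels were low, and 1 of the 7 genes (Sbsn, -0.39) could be compared. It was not 2-fold apart, where 3.42% of 7387 genes were. In P1 suprabasal-like cells all 7 genes were lower in the mandible, from -0.82 (-1.13 to -0.50) for Sprr1a to -2.82 (-3.20 to -2.46) for Serpinb3a, and 5 of 7 were at least 2-fold apart, against 19.9% of 7140 genes. At a resolution of 0.5 the ratio of Sprr1a was 0.67 and that of Sbsn 0.13, and with cells named one by one that of Cnfn was 0.19. With shared barcodes left out of both libraries, all 7 genes were at least 2-fold apart. Maxillary cells of this class held Fgfbp1 at 381 and Sprr1a at 484 CPM without a shared barcode, and at 84.2 and 147 with one. The mandibular levels were 91.8 and 144. The median cell of this class held 2738 UMIs in the maxilla and 11273 in the mandible. With each cell thinned to 2000 UMIs all 7 genes were at least 2-fold lower in the mandible. The log2 ratios were -2.22 for Sprr1a, -3.91 (-5.59 to -2.61) for Cnfn, -1.35 for Sbsn, -2.85 for Serpinb3a, -2.41 for Stfa1, -2.91 (-6.13 to -0.72) for Stfa3 and -2.24 for Fgfbp1. Thinning left 62 of 97 maxillary and 85 of 89 mandibular cells, so it changed the cells as well as their depth. The part of depth was not tested.

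Outside the epithelium, the stefins had a far higher level in neutrophil-like cells. Stfa1 reached 35958, 9748 and 37427 CPM there in E15.5 maxillary, E15.5 mandibular and P1 mandibular (30, 36 and 198 cells), and Stfa3 12272, 3600 and 11756. P1 maxillary had no cluster named neutrophil-like. Its immune-like cells were at 317 for Stfa1 and 102 for Stfa3, but 507 of the 558 Stfa1 and 167 of the 179 Stfa3 UMIs were in 1 subcluster of 80 cells led by S100a8, Stfa1, S100a9 and Stfa3 (2640 and 870 CPM). Of the 8 neutrophil markers that subcluster had S100a8, S100a9, Retnlg and Mmp8, and Ly6g, Camp, Ngp and Ltf were at 0, so it is called here by its leading genes and not by a cell type. Of all Stfa1 UMIs of the libraries with neutrophil-like cells, 71.8%, 85.3% and 94.3% lay in those cells, and of all Stfa3 UMIs 56.9%, 57.4% and 94.9%. In E15.5 mandibular suprabasal-like cells held 38.7% of all Stfa3 UMIs, but 584 of those 648 UMIs were in 1 cell.

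The neutrophil marker list of 8 genes summed to 5.89, 0, 1.480 and 28.4 CPM in suprabasal-like cells. S100a9 was its most abundant gene in those of E15.5 maxillary and P1 mandibular, and the P1 maxillary sum was 1 UMI of Retnlg. All 8 markers were at 0 in E15.5 mandibular, which allows up to 2.58 CPM of each at a count of 3. The stefin level there came mostly from 1 cell, and without the highest cell of each gene and library Stfa1 was at 45.2, 43.5, 66.8 and 16.7 and Stfa3 at 35.6, 61.8, 36.1 and 10.1 in suprabasal-like cells. In the other epithelium the list summed to 5.67, 12.2, 10.1 and 53.5, highest in P1 mandibular, where Stfa1 in other epithelium was also highest. Without the epithelial cells that held 3 or more UMIs of the list, the log2 ratio of Stfa1 in suprabasal-like over other epithelium of P1 mandibular was 1.96, against 1.09 with them. The mandibular P1 over E15.5 ratios over the whole epithelium were then -4.22 for Stfa1 and -7.07 for Stfa3, each further from 0 than with those cells.

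Serpinb3a, Cnfn and Sprr1a lay mostly in suprabasal-like cells. Suprabasal-like cells held 97.0%, 96.2%, 96.0% and 96.3% of all Serpinb3a UMIs of their libraries, 88.2%, 95.6%, 86.4% and 85.9% of the Cnfn UMIs, and 91.7%, 98.6%, 68.7% and 91.5% of the Sprr1a UMIs. The 85.9% of Cnfn in P1 mandibular rests on 1 cell, which held 76 of the 92 Cnfn UMIs of that library. Mesenchyme-like cells there held 12.0%, more than the other suprabasal-like cells. For Fgfbp1 the shares were 51.6%, 94.6%, 31.6% and 59.5%, with other epithelium holding a further 46.0%, 0.604%, 65.0% and 28.6% and mesenchyme-like cells 1.40%, 4.53%, 2.89% and 10.8%. Of the Sbsn UMIs 62.3%, 44.3%, 32.5% and 30.1% were in suprabasal-like cells and 26.6%, 45.7%, 45.5% and 45.5% in mesenchyme-like cells, where its CPM was low. Reads of the overlapping Tmem147os cannot be told apart from Sbsn reads in this share.

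**Figure D5:**
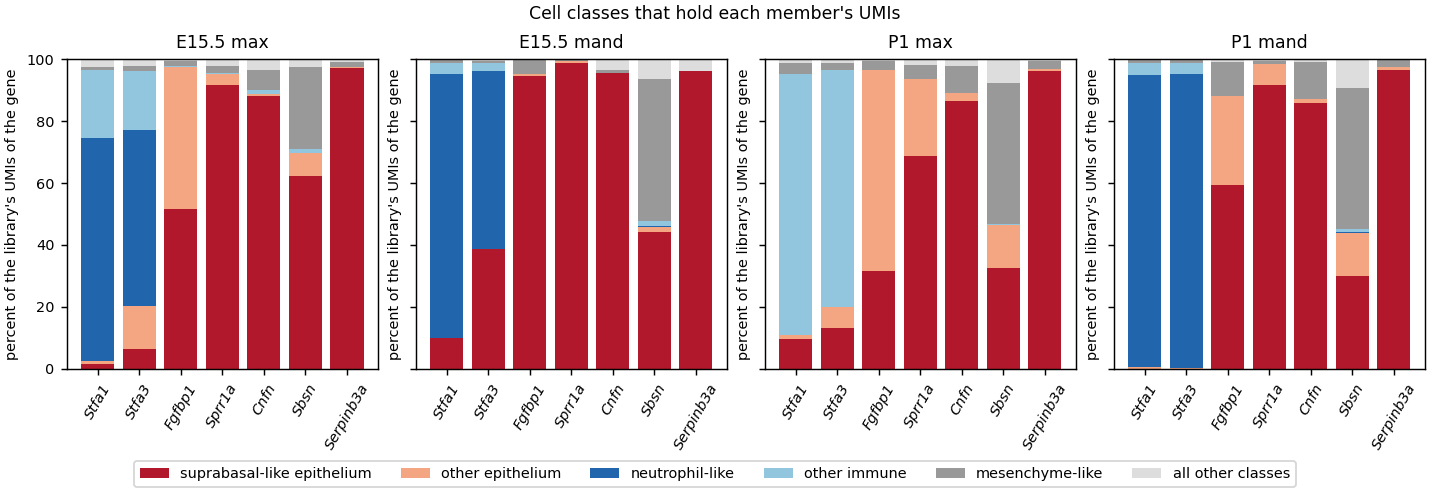
Percent of all UMIs of each gene in a library that lay in suprabasal-like epithelium, other epithelium, neutrophil-like, other immune, mesenchyme-like and all other cells. Serpinb3a and Cnfn lie at 85.9% or more in suprabasal-like cells, while neutrophil-like and other immune cells hold most Stfa1 UMIs in every library. The Cnfn bar of P1 mandibular rests on 1 suprabasal-like cell with 76 of the 92 UMIs.

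To compare how many cells held a UMI, each cell was thinned to 2000 UMIs, which left 90, 27, 62 and 85 suprabasal-like cells and dropped 11, 4, 35 and 4. Fgfbp1 and Sbsn were the most widely detected, Fgfbp1 in 53.3%, 33.3%, 33.9% and 9.41% and Sbsn in 54.4%, 18.5%, 51.6% and 22.4% of cells (unthinned 81.2%, 64.5%, 42.3% and 37.1%, and 82.2%, 48.4%, 56.7% and 51.7%). In mesenchyme-like cells, with medians of 10268, 13926, 5388 and 12256 UMIs, the thinned share was at most 0.101% for Fgfbp1 and 2.15% to 3.08% for Sbsn. Both genes were thus above that background in each library. The exact 95% intervals of the Fgfbp1 shares were 42.5% to 63.9%, 16.5% to 54.0%, 22.3% to 47.0% and 4.15% to 17.7%.

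Serpinb3a was detected in 24.4%, 3.70%, 29.0% and 5.88% of thinned suprabasal-like cells, Cnfn in 17.8%, 7.41%, 16.1% and 1.18%, and Sprr1a in 18 of 90 cells, 7.41%, 17.7% and 2.35%. Unthinned, the shares were 38.6%, 9.68%, 33.0% and 11.2% for Serpinb3a, 32.7%, 12.9%, 22.7% and 3.37% for Cnfn, and 42.6%, 12.9%, 26.8% and 10.1% for Sprr1a. Stfa1 was in 7.78%, 7.41%, 11.3% and 4.71% and Stfa3 in 10.0%, 14.8%, 14.5% and 2.35% (unthinned 31.7%, 19.4%, 13.4% and 13.5%, and 37.6%, 29.0%, 14.4% and 12.4%). In mesenchyme-like cells the thinned share of these 5 genes was at most 1.53%, that of Stfa1 in P1 mandibular. The exact 95% interval for Serpinb3a was 15.997% to 34.6% in E15.5 maxillary, 0.0937% to 19.0% in E15.5 mandibular, 18.2% to 41.9% in P1 maxillary and 1.94% to 13.2% in P1 mandibular, the E15.5 mandibular value resting on 1 of 27 cells. In P1 mandibular the interval for Cnfn, with 1 of 85 cells, was 0.0298% to 6.38%. The thinned shares of E15.5 mandibular rest on 1 to 9 cells, and in P1 mandibular they rest on 1 to 5 cells for these 5 genes.

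At the thinned depth, 3 or more of the 7 genes were detected in 30 of 90 suprabasal-like cells of E15.5 maxillary (33.3%) and 20 of 62 of P1 maxillary (32.3%), but in 2 of 27 and 4 of 85 in the mandibular libraries. In other epithelium this held for 2 of 591 cells in E15.5 maxillary and for 0 of 67, 0 of 1787 and 0 of 1089 cells in the other libraries, which allows shares of up to 4.48%, 0.168% and 0.275%. At full depth Cnfn and Serpinb3a were found together in 26 cells of E15.5 maxillary (78.8% of the Cnfn cells and 66.7% of the Serpinb3a cells) and in 20 cells of P1 maxillary (90.9% and 62.5%). Stfa1 and Stfa3 were found together in 18 cells of E15.5 maxillary (56.2% and 47.4%) and in 2 cells of P1 maxillary, of 13 and 14.

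Over 50 profiles of cell classes in the 4 libraries (log2 of CPM plus 1), the 7 genes formed 2 sets. Pearson r was 0.96 between Stfa1 and Stfa3 and 0.98 between Cnfn and Serpinb3a, while Sprr1a had r of 0.89 with Cnfn and 0.87 with Serpinb3a, and Stfa1 had r of 0.03 with Fgfbp1 and 0.08 with Sprr1a. Over the 16 epithelial profiles alone, the r of Stfa1 with Cnfn was 0.87 and with Sbsn 0.83. The points share libraries, depth and cells of low count, and the values are descriptions.

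The genes most like Stfa1 over the 50 profiles were Stfa2l1 (r 0.93), Csta2 and Cstdc4 (0.92), Il1rn (0.91) and Cstdc5 (0.90), all of which peaked in neutrophil-like cells, Cstdc5 in those of E15.5 maxillary and the others in those of P1 mandibular. Those of Stfa3 were Cstdc5 and Il1rn (0.92), Csta2 (0.90), Plbd1 (0.88) and Stfa2l1 (0.87). By the 3' windows above, reads shared with another gene concern 2 of 24 windows of Stfa1 and none of 11 of Stfa3. For Cnfn they were Idi2 (0.96), Gm94 and Krt6b (0.95), Ly6g6c and Fam25c (0.94), and for Serpinb3a Idi2 and Gm94 (0.99), Fam25c, Cyp4f39 and Ly6g6c (0.96). Idi2 and Gm94 reached 392 and 365 CPM in P1 maxillary suprabasal-like cells.

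Sprr1a was most like Pdzk1ip1 (0.94), Calml3 (0.93), Psapl1 (0.92), Krt23 and Clic3 (0.91). Sbsn was most like Lypd3 and Klk13 (0.90), Them5 (0.89), Cst6 and Fam25c (0.88). Fgfbp1 was most like Krt19 (0.92), Gm16136 and Sptlc3 (0.91), Ly6d and Eppk1 (0.90). A keratin gene was thus among the nearest genes of Sprr1a (Krt23), Cnfn (Krt6b) and Fgfbp1 (Krt19).

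Related genes were read from 11 lists with 186 genes, 181 of them in the matrices. The lists were chosen with earlier results of these data known, so their counts are descriptions. The list of Sbsn neighbours and transglutaminases was the nearest in pattern. Krtdap, which lies beside Sbsn and encodes a secreted keratinocyte protein, was at 1201, 1063, 167 and 102 CPM of the epithelium and at 4116, 2225, 3606 and 1588 in suprabasal-like cells. Its log2 ratio of P1 over E15.5 was -2.85 and -3.38 over the epithelium and -0.19 and -0.49 within suprabasal-like cells. Dmkn, which encodes the secreted protein dermokine of the same locus, gave -2.54 and -3.03, and -0.18 and -0.15. Of this list 2 of 2 genes compared in the maxillary and 3 of 3 in the mandibular epithelium were at least 4-fold lower at P1, against 1.29% and 1.76% of all genes compared, and 0 of 4 in the suprabasal-like cells of either jaw, against 0.789% and 1.62%. The same shares are the background of the counts that follow. The third mandibular gene was Tgm3, an envelope transglutaminase (-3.37).

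Of the stefins and cystatins other than the 7 genes, 1 of 5 genes compared in the maxillary epithelium (Cstdc5, -2.14) and 2 of 5 in the mandibular epithelium (Cstdc5, -4.34, and Csta1, -2.12) were at least 4-fold lower at P1. Where such a count names a gene outside the naming rule (here Csta1), it was chosen after its values were seen. In mandibular suprabasal-like cells Cst6, a secreted cystatin of the upper layers, was at 81.6 CPM at E15.5 and 1217 at P1 (log2 ratio 3.90), 1 of 5 genes compared, where 2.32% of 7364 genes were at least 4-fold higher, and Cstdc5 (-2.52), also 1 of 5, was at least 4-fold lower, where 1.62% were. Cstdc5, a stefin-like gene, was at 863, 541, 1357 and 94.3 CPM in suprabasal-like cells, while Cstb, the widely used stefin B, was at 522, 359, 395 and 406. Of the other clade B serpins 0 of 5 in the maxillary and 1 of 4 in the mandibular epithelium (Serpinb12, -3.15) were at least 4-fold lower, with Serpinb12 at 120, 82.5, 252 and 40.9 and Serpinb5 (maspin) at 418, 265, 513 and 321 in suprabasal-like cells. Serpinb12 shared with Serpinb3a a higher P1 maxillary than E15.5 maxillary level (log2 ratio 1.07), but its mandibular ratio was -1.01.

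Of 45 cornified envelope precursors other than the 7 genes, 44 were in the matrices but 2 could be compared over the epithelium, the linker proteins Ppl and Evpl, with log2 ratios of -0.92 and -0.69 in the maxilla and -0.37 and -0.83 in the mandible. Within P1 maxillary suprabasal-like cells, 14 of 17 genes compared were at least 4-fold higher than at E15.5, against 1.05% of 6588 genes, but 1 Lce-rich cell of 2419 UMIs with a shared barcode held 1110 of the 1414 UMIs of the list. Without that cell 2 of 5 genes were. The 14 genes with that cell in were 12 late cornified envelope (Lce) genes, Lor (loricrin) and Sprr1b.

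Desmosome genes encode the junctions that hold the layers together. Of 10 compared in the maxillary and 9 in the mandibular epithelium, 1 (Dsg3, -2.23 in the maxilla) and 0 were at least 4-fold lower at P1. Dsp was at 1947, 983, 2156 and 1430 in suprabasal-like cells. Of 6 tight junction genes compared over the epithelium of each jaw, none was 4-fold apart in either direction.

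Among barrier lipid enzymes 1 of 4 was at least 4-fold lower at P1 in each jaw, Sult2b1 (cholesterol sulfotransferase), with ratios of -2.31 and -3.00 over the epithelium and -0.45 and -0.54 in suprabasal-like cells. Of the kallikreins, cathepsins and their inhibitors, 1 of 8 in the maxilla (Asprv1, -2.85) and 2 of 7 in the mandible (Klk8, -2.17, and Spink5, -2.01) were at least 4-fold lower. Klk8, a serine protease of the upper layers, was at -1.26 in the maxilla. In mandibular suprabasal-like cells the proteases Klk10 (37.8 and 164 CPM at E15.5 and P1) and Klk7 (0.859 and 41.7) were instead at least 4-fold higher at P1, 2 of 12 genes compared, against 2.32%. Of 7 S100 and alarm genes compared over the epithelium of each jaw none was 4-fold apart, with S100a14 at -1.88 and -1.59 and S100a6 at 0.85 and 1.22.

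Of 17 barrier transcription factors and regulators compared over each epithelium, 1 in each jaw was at least 4-fold lower (Tfap2c, -2.59 and -2.47) and 1 in the maxilla at least 4-fold higher, against 3.56% of 7698 genes. The latter was Maf, at 63.8, 368, 428 and 869 CPM of the epithelium, which was higher at P1 also in suprabasal-like cells (12.2, 23.2, 47.4 and 224). Sfn, which encodes the 14-3-3 protein stratifin, was at -1.71 and -1.06. Of the FGF partners of Fgfbp1, 2 genes could be compared over each epithelium. The receptor Fgfr2 was at 428, 361, 317 and 310 over the epithelium, and the ligand Fgf1 was at 7.14, 4.85, 26.7 and 41.1, with log2 ratios of 1.90 and 3.08, opposite in sign to those of Fgfbp1 and past 4-fold in the mandible, where 2.79% of 7661 genes were at least 4-fold higher.

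The same lists were counted for suprabasal-like against other epithelium in each library, where the background was 2.46%, 3.08%, 3.96% and 4.72% of genes at least 4-fold higher. The Sbsn neighbours and transglutaminases were higher for 4 of 4 genes compared in each library, and desmosome genes for 5, 5, 8 and 6 of 10. Stefins and cystatins were higher for 3 of 5, 3 of 5, 4 of 6 and 3 of 5, and clade B serpins for 3 of 6, 2 of 5, 4 of 7 and 3 of 6. The kallikreins, cathepsins and their inhibitors gave 4 of 11, 4 of 9, 5 of 11 and 7 of 12, and the lipid enzymes 5 of 7, 2 of 5, 5 of 9 and 3 of 7. Each of these shares was above the background of its library. However, the lists were chosen with earlier results of these data known. A gene could also enter the comparison by its level in suprabasal-like cells alone. The counts of the lists here and below thus carry no test.

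The cornified envelope precursors gave 2 of 3, 1 of 3, 17 of 17 and 0 of 2, the count of P1 maxillary resting on the Lce-rich cell described above. S100 and alarm genes gave 3 of 7, 2 of 6, 4 of 9 and 3 of 8, and barrier transcription factors 6 of 19, 3 of 18, 5 of 19 and 2 of 18. No tight junction gene and no FGF partner was at least 4-fold higher in suprabasal-like cells.

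At least 4-fold lower in suprabasal-like than in other epithelium were 4.44%, 4.93%, 10.9% and 5.09% of all genes compared. Of the lists, Maf was lower in each library (log2 ratios -2.63, -4.86, -3.22 and -2.02). Among tight junction genes the claudin Cldn6 was lower in E15.5 maxillary (-2.32) and E15.5 mandibular (-2.25) and Cldn3 in P1 maxillary (-5.08, -10.38 to -2.59, on 1 UMI). The others were the envelope protein gene Tchh in E15.5 mandibular (-2.64), the desmosomal cadherin Dsg2 in P1 maxillary (-2.01) and Fgf1 in P1 mandibular (-3.12).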

How the data were processed

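The authors aligned and counted the reads with Cell Ranger 7.0.1 on mm10 (per the file headers and labels), and the deposited values are raw UMI counts per gene and barcode. Members and gene lists were chosen with earlier results of these data known, and the naming thresholds were set after clusters were seen. Barcodes of at least 1000 UMIs were kept, barcodes over 3 MADs in mitochondrial share and those with the highest Scrublet scores, up to the number expected from the load (0.8% per 1000 cells), were removed as doublets, and cells were clustered with scanpy 1.11.5 (2000 variable genes, 40 components, 15 neighbours, Leiden resolution 1, and 20 components for the epithelium), leaving out 188 genes (the 7 genes and the lists). A cluster took the class with at least 3 markers among its 10 leading genes, or else the class whose markers were on average highest among clusters. It stayed unnamed with fewer than 3 detected markers or no clear best class. Suprabasal and periderm did not compete in this choice. A cluster best matched to periderm was named suprabasal if its suprabasal markers were also high and any of them was a leading gene.

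Levels are summed UMIs per 1000000 UMIs of a class (CPM), with exact Poisson intervals; ratios have exact binomial intervals and shares Clopper-Pearson intervals. Genes with at least 10 UMIs and 20 CPM in the higher class were compared, with 4-fold (stage, layer) or 2-fold (jaw) bounds. Counts of 0 were set to 3. The named genes are the 7 genes and, for each of them, the 5 genes outside the 7 of highest Pearson r (at least 50 CPM in 1 class of at least 20 cells). In each list they are the 3 of highest epithelial level and up to 2 of largest change in each direction. The fold calls and intervals were run on simulated independent counts of whole epithelial profiles, without cells or clusters. That simulation does not cover UMIs concentrated in a few cells or the naming of classes. For the real data 14 alternatives were run.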

Additional observations from a re-analysis of the deposited data

Results flagged for a closer look

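For 3 values the P1 to E15.5 difference had opposite signs in the jaws with both counting intervals apart from 0, and with 1 library for each jaw and stage the difference was not tested. Stfa1 in suprabasal-like cells had a log2 ratio of P1 over E15.5 of 0.56 in the maxilla and -3.59 in the mandible, where 1 cell at E15.5 held 85.2% of its UMIs. Sbsn in suprabasal-like cells had ratios of 0.15 and -0.47. Stfa1 in the other epithelium had ratios of -4.16 and 2.15, on levels of 7.22 and 0.404 CPM in the maxilla and 2.29 and 10.2 in the mandible. These levels are under the 20 CPM asked of a compared gene, and the 2.15 (0.59 to 4.45) rests on 3 UMIs at E15.5 and was below 0 under 5 of the 14 alternatives, down to -3.88.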

How the results depend on the processing

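No replicate block was fitted because each stage and jaw has 1 library, and a fit over the 4 libraries with the jaw as a block, which would leave 1 residual degree of freedom, was not run. Under the alternatives, 163 counts of the 7 genes past a fold stayed within 1.5 times the value given above and 17 did not, while 869 single log2 ratios stayed within their counting interval, 426 moved further and 29 that were past their fold bound turned in sign. The genes at least 4-fold lower at P1 in the maxillary epithelium (4) were 2 with a filter on detected genes, 1 without shared barcodes and 2 with cells thinned to 2000 UMIs, and those in the mandibular epithelium (7) were 3 with thinned cells and 4 without the highest cell. The genes higher in suprabasal-like cells were 3 with thinned cells in E15.5 mandibular (7) and in P1 mandibular (5), and those apart between jaws in P1 epithelium (0) were 3 without shared barcodes, 1 with thinned cells and 4 by the mean of per-cell levels. Within suprabasal-like cells, the genes lower at P1 in the maxilla (0) were 2 at a 2-fold bound and 1 at resolution 0.5, those apart between jaws at E15.5 (4) were 2 with cells named one by one and 7 at resolution 0.5, and those apart at P1 (5) were 3 at a 4-fold bound, 3 with cells named one by one and 1 at resolution 0.5.

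Most values that turned rest on the 31 E15.5 mandibular suprabasal-like cells. With doublets and high-mitochondrial barcodes kept in, with cells named one by one and at resolution 2, respectively, the log2 ratios of Stfa1 were 1.36, 1.66 and 1.57 (P1 over E15.5, mandibular suprabasal-like), -3.80, -3.88 and -3.81 (the same, other epithelium), -2.79, -3.14 and -3.27 (suprabasal-like over other, E15.5 mandibular) and -1.35, -2.14 and -2.26 (mandible over maxilla, E15.5 suprabasal-like). For Stfa3 they were -3.39, -3.42 and -3.55 (suprabasal-like over other) and -0.57, -0.72 and -2.20 (mandible over maxilla), and for Cnfn 0.41, 0.12 and 0.29 (mandible over maxilla). Cells named one by one gave Cnfn 0.19 between jaws at P1, and resolution 0.5 gave Sbsn 0.13. Stfa1 in mandibular other epithelium was -1.29 with thinned cells and -0.66 by the mean of per-cell levels. Between jaws at E15.5, Stfa3 over the epithelium was -0.26 by that mean and -0.79 without the highest cell, and Stfa1 in suprabasal-like cells -0.15 and -0.057. The cause was not tested. The alternatives without the highest cell, without E15.5 maxillary subclusters 0 and 3, without cells of 3 or more neutrophil UMIs and with an unnamed cluster counted as epithelium were chosen after seeing the data. Precision is limited by the 31 to 101 suprabasal-like cells of a library.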

Other observations

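In P1 maxillary, 1 suprabasal-like cell of 2419 UMIs, with a barcode shared with P1 mandibular, held 1110 UMIs of cornified envelope precursors, 45.9% of its UMIs. All 918 UMIs of the 18 late cornified envelope (Lce) genes in the suprabasal-like cells of that library were in this cell, against 0 such UMIs in both E15.5 libraries and 1 in P1 mandibular. Of the 7 genes it held 22 Cnfn, 4 Stfa1, 3 Stfa3, 2 Serpinb3a and 1 Sbsn UMIs and none of Sprr1a or Fgfbp1. The cell with the next most UMIs of the list held 27.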
